A study of Mus musculus with 9 samples.

Results

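The Dlk1-Meg3 domain is a stretch of mouse chromosome 12 in which some genes are read from the copy inherited from the father and others from the copy inherited from the mother. The genes described are those of 9 symbols chosen by name (Yy1, Wdr25, Begain, Dlk1, Meg3, Rtl1, Rian, Mirg and Dio3), of which 7 were rows of the 25965 in the deposited table; Rian and Mirg are not analysed here. They were chosen because Dlk1 and Meg3 were already known, from these same values, to differ between deleted and control cultures. Every difference between those cultures in the 7 genes is therefore given as a description. Limma calls of these genes in that contrast are printed beside the share over all kept genes, and nothing is read from them. RNA was sequenced from neural stem cells, the dividing precursors that give rise to neurons and glia, cultured from C57BL/6 E14.5 embryos that carried floxed alleles of Smchd1, in which loxP sites let Cre recombinase delete part of the gene. The del/del group held female lines 1, 2 and 3 and male line 5, which received the retrovirus MSCV-Cre-puro, then puromycin from 24 h after transduction, and were harvested on day 7. The fl/fl group held the untransduced parts of the same 4 lines and male line 7, which has no del/del counterpart. All 9 libraries thus share the floxed background, and the 2 groups differ in virus and puromycin as well as in Smchd1, which this comparison cannot tell apart. The titles number the lines but do not say that each came from its own embryo, so the spread is that between lines.

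At this domain in mice, Dlk1, Rtl1 and Dio3 are expressed from the paternal chromosome and the noncoding RNAs Meg3, Rian and Mirg from the maternal one, under the control of an intergenic region that is methylated on the paternal copy. Begain, Wdr25 and Yy1 lie on the Yy1 side of these genes. Dlk1 protein is known in the postnatal brain as a factor of neural stem cells and their niche, and Smchd1 protein is known to take part in silencing some imprinted genes. Both parental chromosomes here are C57BL/6, and the values do not tell which copy was read.

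The promoter windows of Dlk1 and Meg3 are shown because these 2 genes, expressed from opposite parental copies, had the largest differences between the groups among the domain genes that passed the filter on low values. Each window runs from 250 bases before to 50 bases after the start of the gene (RefSeq, GRCm38.p6, plus strand, chr12:109452573-109452872 for Dlk1 and chr12:109540746-109541045 for Meg3), and capitals mark CG dinucleotides, the sites of DNA methylation.
Dlk1: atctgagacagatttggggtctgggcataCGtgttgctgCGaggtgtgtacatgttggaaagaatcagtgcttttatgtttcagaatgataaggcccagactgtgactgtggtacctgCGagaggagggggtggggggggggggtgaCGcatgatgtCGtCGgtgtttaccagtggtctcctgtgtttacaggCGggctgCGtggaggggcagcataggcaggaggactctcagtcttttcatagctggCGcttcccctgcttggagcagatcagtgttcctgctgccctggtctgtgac
Meg3: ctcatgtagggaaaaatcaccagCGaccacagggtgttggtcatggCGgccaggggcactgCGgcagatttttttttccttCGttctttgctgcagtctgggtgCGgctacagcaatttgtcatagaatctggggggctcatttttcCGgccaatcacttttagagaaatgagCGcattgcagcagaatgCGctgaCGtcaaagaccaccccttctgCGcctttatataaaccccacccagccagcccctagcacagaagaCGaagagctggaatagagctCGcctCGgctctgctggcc
The Dlk1 window held 9 CG dinucleotides and the Meg3 window 13 (a second listed start of Meg3 had 1), where the median of all 32851 windows of 300 bases was 7. The windows of Begain, 42 at its first listed start, and Yy1, 42, held more CG dinucleotides than 97.0% of windows, that of Dio3 held 25, that of Mirg 10 and that of Rian 0. On both strands TGCCGC, the hexamer that the imprint-protecting protein ZFP57 binds when methylated, was found once in the Meg3 window, 190 bases before the start on the minus strand, and in none of the other 11 windows of the 7 genes with a window; 11.6% of all windows hold it. AANATGGC, the core of the motif of YY1, was in none of the 12 windows and in 6.05% of all windows. A match or its absence says nothing of binding.

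The domain also carries many miRNAs, of which 116 mature RefSeq entries from 62 hairpin genes lie between Yy1 and Dio3. Of these, 13 entries from 7 hairpins lie inside the Rtl1 row and 3 entries from 2 hairpins inside the Meg3 row. Of the 13, 11 are on the strand opposite to Rtl1 itself, where mice have a maternally expressed antisense transcript. Since the strand setting of the counting is not given in the sources used here, reads of Rtl1 and of that transcript cannot be told apart. Mature miRNAs themselves were not measured. These 6 entries are shown because they fall inside the rows of Rtl1 and, for miR-770-5p, Meg3, on the plus strand. Capitals mark the seed, bases 2 to 8, and no 2 of the 6 share one.
miR-431-5p: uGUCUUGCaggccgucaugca
miR-433-3p: aUCAUGAUgggcuccucggugu
miR-127-3p: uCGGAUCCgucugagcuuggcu
miR-434-3p: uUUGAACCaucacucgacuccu
miR-136-5p: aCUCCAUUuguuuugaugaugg
miR-770-5p: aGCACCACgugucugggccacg
Along the whole stretch 9 seeds were shared by 2 names, such as GGUAGAC in miR-379-5p and miR-1193-5p, which lie between Rtl1 and Dio3.

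Levels are log2 RPM, the log2 of a gene's reads per 1000000 reads of the library, as the authors gave them, and reads were recovered as whole numbers from them. The libraries held 24.1 to 116.6 M reads (M for 1000000), with female fl/fl 2 the shallowest and the next at 74.0 M. Female fl/fl 2 also stood apart in the share of its reads in listed rows, 53.3% against 34.8% to 44.4% in the others. Smchd1, the targeted gene, had 5.36, 5.04, 5.21 and 5.23 log2 RPM in female del/del 1, 2 and 3 and male del/del 5, against 6.36, 6.81, 6.16, 6.25 and 6.37 in female fl/fl 1, 2 and 3 and male fl/fl 5 and 7. The groups did not overlap, and RNA of the row was still present after deletion (a 2.28-fold fall, limma adjusted p = 0.00751, and 0.0930 without male del/del 5). All 12 neural stem cell markers were detected and passed the filter on low values, with a summed level of 565 to 769 RPM in del/del and 533 to 1080 RPM in fl/fl libraries. Genes with at least 0 log2 RPM in at least 3 libraries were kept for the fits, 14044 in all, and of the 7 domain genes Yy1, Wdr25, Begain, Dlk1 and Meg3 passed. Dlk1 and Meg3 reached 0 in all 4 del/del but only 2 of 5 fl/fl libraries, so they passed only with the del/del libraries.

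**Figure D1:**
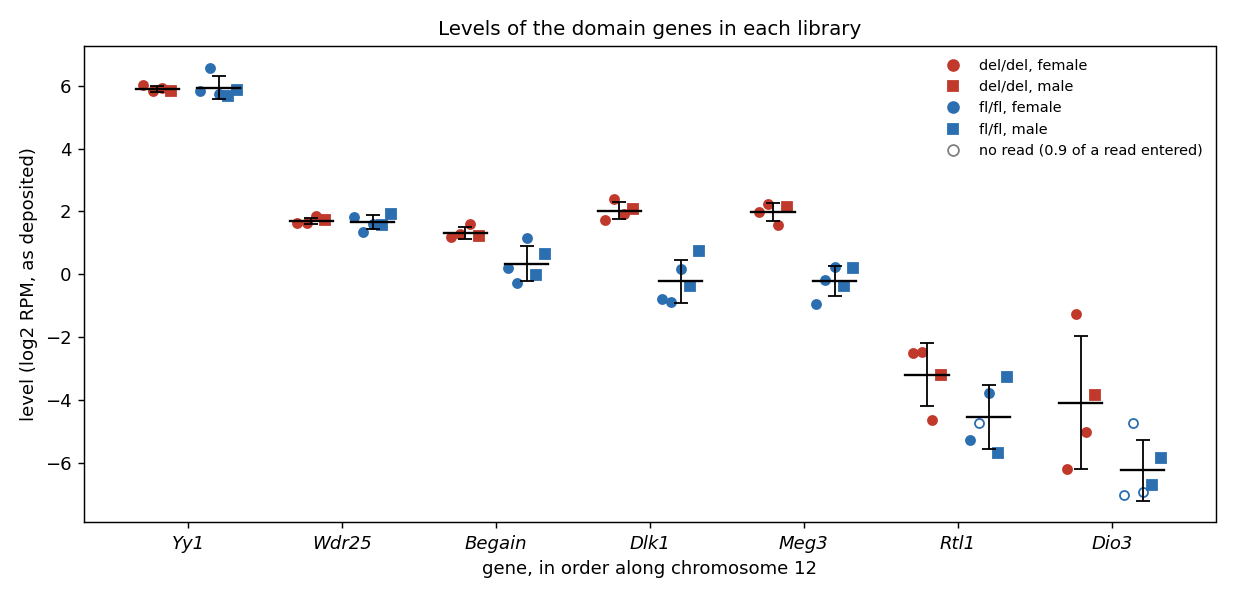
Level of each domain gene (log2 RPM, y axis) in the 4 del/del (red) and 5 fl/fl (blue) libraries, with genes in chromosomal order on the x axis; bars are the mean and SD, circles female, squares male, and open symbols libraries with no read. Dlk1 and Meg3 in del/del libraries lie above every fl/fl library, Begain by 0.02, and Yy1, Wdr25, Rtl1 and Dio3 overlap.

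Dlk1, the paternally expressed gene of a transmembrane relative of the Notch ligands that restrains cell differentiation, was higher in every del/del library. It lies at 109452823 to 109463336 (mm10, plus strand, ENSMUST00000174539, protein coding). It had 1.72, 2.38, 1.92 and 2.09 log2 RPM in female del/del 1, 2 and 3 and male del/del 5, which is 244, 546, 375 and 433 reads. In female fl/fl 1, 2 and 3 and male fl/fl 5 and 7 it had -0.78, -0.89, 0.16, -0.37 and 0.75 log2 RPM, from 68, 13, 123, 81 and 194 reads. The lowest del/del library thus lay 0.97 above the highest fl/fl library, which was male fl/fl 7. It averaged 2.03 ± 0.277 log2 RPM over the del/del cultures (SD, n = 4), against -0.23 ± 0.684 over the fl/fl cultures (SD, n = 5), and the difference with sex taken into account was 2.32 (SE 0.323), or 5.00-fold. In such bulk RNA, more cells of a type and more RNA per cell cannot be told apart.

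Meg3, a maternally expressed long noncoding RNA that acts in the nucleus, was higher to much the same extent. Its row spans 109541001 to 109571726 (plus strand, ENSMUST00000129245, lincRNA), starting 77.7 kb after the end of Dlk1. GENCODE places an antisense gene, Gm26906, over its 3′ end, and without a known strand setting its reads and those of Meg3 cannot be told apart. It had 1.97, 2.24, 1.57 and 2.14 log2 RPM in female del/del 1, 2 and 3 and male del/del 5, from 290, 497, 293 and 450 reads. In female fl/fl 1, 2 and 3 and male fl/fl 5 and 7 it had -0.94, -0.20, 0.24, -0.39 and 0.20 log2 RPM, from 61, 21, 130, 80 and 133 reads. The gap between the groups was 1.32, wider than for Dlk1. It averaged 1.98 ± 0.298 log2 RPM over the del/del cultures (SD, n = 4), against -0.22 ± 0.484 over the fl/fl cultures (SD, n = 5), a difference of 2.23 (SE 0.278), or 4.68-fold.

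The 2 genes moved side by side from library to library. The Meg3 level minus the Dlk1 level was 0.25, -0.14, -0.36 and 0.06 in female del/del 1, 2 and 3 and male del/del 5, and -0.16, 0.69, 0.08, -0.02 and -0.54 in female fl/fl 1, 2 and 3 and male fl/fl 5 and 7. On the log2 scale that is a mean of -0.05 ± 0.26 over the del/del cultures (SD, n = 4), against 0.01 ± 0.45 over the fl/fl cultures (SD, n = 5), so the paternally and the maternally expressed gene kept about the same ratio of reads in both groups. The largest value, in female fl/fl 2, rests on 21 reads of Meg3 and 13 of Dlk1. With genotype and sex taken out, the levels of Dlk1 and Meg3 still had a Pearson r of 0.70 over the 9 libraries. Begain had 0.80 with Dlk1, 0.45 with Meg3 and 0.56 with Wdr25. Wdr25 had 0.42 with Dlk1 and -0.28 with Meg3. Yy1 had 0.09 with Meg3, -0.40 with Dlk1, -0.61 with Begain and -0.54 with Wdr25. These values are description only, since the libraries share lines, depth and scaling.

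**Figure D2:**
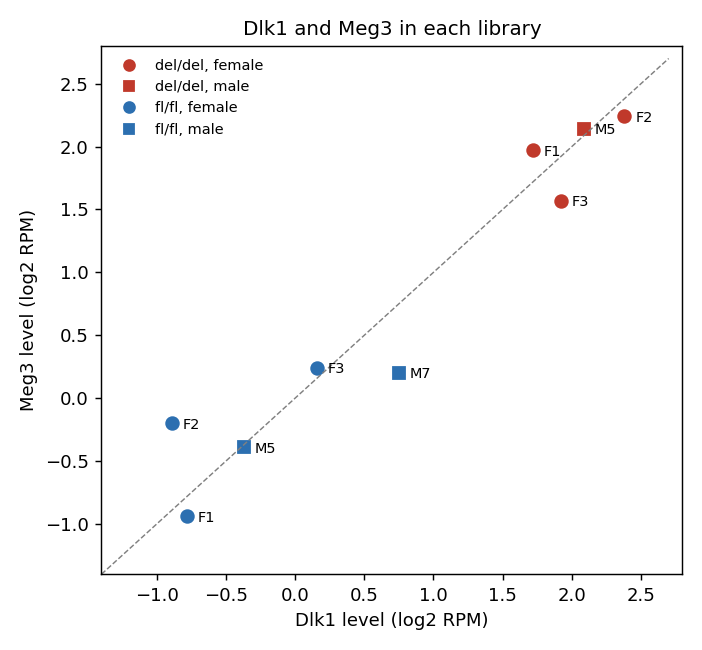
Meg3 level (y axis, log2 RPM) against Dlk1 level (x axis, log2 RPM) in each of the 9 libraries, named by sex and line; the dashed line marks equal levels. The 4 del/del libraries form the upper group, with Dlk1 from 1.72 to 2.38, and the 5 fl/fl libraries the lower one, with Dlk1 from -0.89 to 0.75.

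Rtl1 and Dio3, the other paternally expressed genes, had so few reads that their direction rests on counting. Rtl1 encodes a Gag-like protein derived from a retrotransposon and needed in the placenta (109589194 to 109600330, minus strand, ENSMUST00000149046). It had 13, 19, 4 and 11 reads in female del/del 1, 2 and 3 and male del/del 5, against 3, 0, 8, 2 and 12 reads in female fl/fl 1, 2 and 3 and male fl/fl 5 and 7. The groups overlapped: female del/del 3 lay below female fl/fl 3 and male fl/fl 7. Pooled, the level was 0.124 RPM in del/del (47 reads, exact Poisson 95% interval 0.0909 to 0.164) and 0.0531 RPM in fl/fl libraries (25 reads, 0.0344 to 0.0784). The pooled ratio was 2.33 (exact binomial 95% interval 1.41 to 3.95), and 1.92 (1.08 to 3.43) without female del/del 2. Such intervals cover counting error and not the spread between libraries. Fitted between libraries with no filter on low values, the log2 difference was 1.36 (95% interval -0.16 to 2.88).

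Dio3 encodes the type of deiodinase that inactivates thyroid hormone (110279068 to 110281097, plus strand, ENSMUST00000173014). It had 1, 44, 3 and 7 reads in female del/del 1, 2 and 3 and male del/del 5, against 0, 0, 0, 1 and 2 reads in female fl/fl 1, 2 and 3 and male fl/fl 5 and 7. Most of the reads came from 1 library, female del/del 2, at 0.418 RPM where the other del/del libraries had 0.0135 to 0.0687 RPM. The 3 fl/fl libraries with no read allow levels up to 0.0257, 0.124 and 0.0273 RPM in female fl/fl 1, 2 and 3 (3 reads of the library). The pooled ratio was 22.7 (interval 7.38 to 114), and 6.28 (1.66 to 35.1) without female del/del 2, from 55 or 11 del/del reads against 3 fl/fl reads. These intervals and limits cover counting error only, and the reads carry no molecular identifiers. Fitted between libraries with no filter on low values, the log2 difference of Dio3 was 2.17 (95% interval 0.16 to 4.18), or 4.5-fold (limma adjusted p = 0.587). Neither gene passed the filter on low values.

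**Figure D3:**
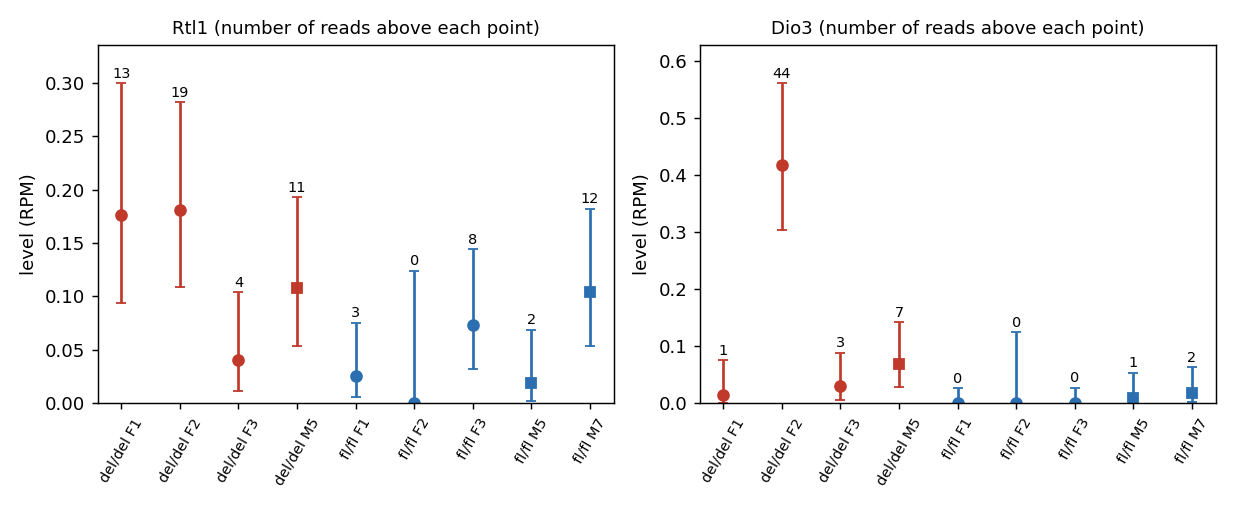
Levels of Rtl1 (left) and Dio3 (right) in RPM (y axis) in each library (x axis; F female, M male, with the line number), with exact Poisson 95% intervals (up to 3 reads where there was none) and the number of reads above each; red is del/del, blue fl/fl. Dio3 in female del/del 2 (44 reads) stands above every other library, and Rtl1 overlaps between the groups.

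Begain, Wdr25 and Yy1, which lie toward the Yy1 end of the stretch, differed less, and Wdr25 and Yy1 overlapped between the groups. Begain encodes a protein that binds guanylate kinase domains of synaptic scaffolds (109032187 to 109068217, minus strand, ENSMUST00000073156), and its row ends 384.6 kb before that of Dlk1. Its levels were 1.17, 1.29, 1.59 and 1.22 log2 RPM in female del/del 1, 2 and 3 and male del/del 5, against 0.20, -0.27, 1.15, -0.04 and 0.63 in female fl/fl 1, 2 and 3 and male fl/fl 5 and 7. The groups were parted by only 0.02, between female del/del 1 and female fl/fl 3. The difference was 0.97 (SE 0.297), or 1.96-fold, from means of 1.32 ± 0.19 over the del/del cultures (SD, n = 4), against 0.33 ± 0.563 over the fl/fl cultures (SD, n = 5).

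Wdr25, a WD-repeat protein gene whose row ends 3.7 kb before that of Begain (108894272 to 109028452, plus strand, ENSMUST00000167816), overlapped between the groups. It had 1.64, 1.63, 1.84 and 1.71 log2 RPM in female del/del 1, 2 and 3 and male del/del 5, against 1.83, 1.34, 1.61, 1.57 and 1.92 in female fl/fl 1, 2 and 3 and male fl/fl 5 and 7. Its difference was 0.06 (95% interval -0.28 to 0.40). Begain minus Wdr25, which cancels a library's scaling, was -0.49 to -0.24 in del/del and -1.63 to -0.47 in fl/fl libraries, so that these also overlapped, through female fl/fl 3.

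Yy1 encodes a zinc finger transcription factor that both activates and represses genes (108792973 to 108816632, plus strand, ENSMUST00000021692). It had 6.04, 5.82, 5.92 and 5.82 log2 RPM in female del/del 1, 2 and 3 and male del/del 5, against 5.82, 6.58, 5.75, 5.68 and 5.86 in female fl/fl 1, 2 and 3 and male fl/fl 5 and 7. The groups overlapped, and the high fl/fl value was that of female fl/fl 2, whose median over all kept genes, 4.46 log2 RPM, was also above those of the other libraries, 4.10 to 4.38. The difference of Yy1 was -0.07 (95% interval -0.46 to 0.32).

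Of the 5 domain genes that passed the filter, limma called 2 higher and 0 lower in del/del cultures (Dlk1 and Meg3), where 1.45% of all kept genes were called higher and 0.0997% lower; 3 of the 5 had an unadjusted p under 0.05, as did 9.84% of all kept genes. With the line as a block 3 were called, Begain being the addition, where 3.99% of all kept genes were called (3.77% higher and 0.228% lower). With the block and median centring together 2 were called, Begain not among them. Without male del/del 5, or with the females only, 0 were called, and over all kept genes only 2 and 3 genes passed; the estimates of Dlk1 and Meg3 without male del/del 5 were 2.51 and 2.22. Every del/del library lay above every fl/fl library in 3 of the 5, where 5.53% of all kept genes behaved so and 6.52% did not overlap in either direction. The estimate was at least 2 for Dlk1 and Meg3, as for 0.306% of all kept genes. Since these genes were chosen with this contrast in view, nothing is read from these counts.

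Compared within lines, the size of the difference varied more than its direction. Dlk1 was higher in the del/del part of female line 1, 2 and 3 and male line 5 by 2.50, 3.27, 1.76 and 2.46 on the log2 scale. Meg3 was higher by 2.91, 2.44, 1.32 and 2.53, and Begain by 0.97, 1.56, 0.44 and 1.26. Female line 3 had the smallest difference in all 3 genes. Its del/del library was not the lowest for Dlk1 or Begain, while female fl/fl 3 was the highest female fl/fl library for all 3. Rtl1 was lower in the del/del part of that line alone, by 0.85 on the log2 scale from 4 reads in del/del and 8 in fl/fl. Of all kept genes 17.9% were higher in del/del in all 4 pairs and 0.733% by at least 1 on the log2 scale, as Dlk1 and Meg3 were.

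**Figure D4:**
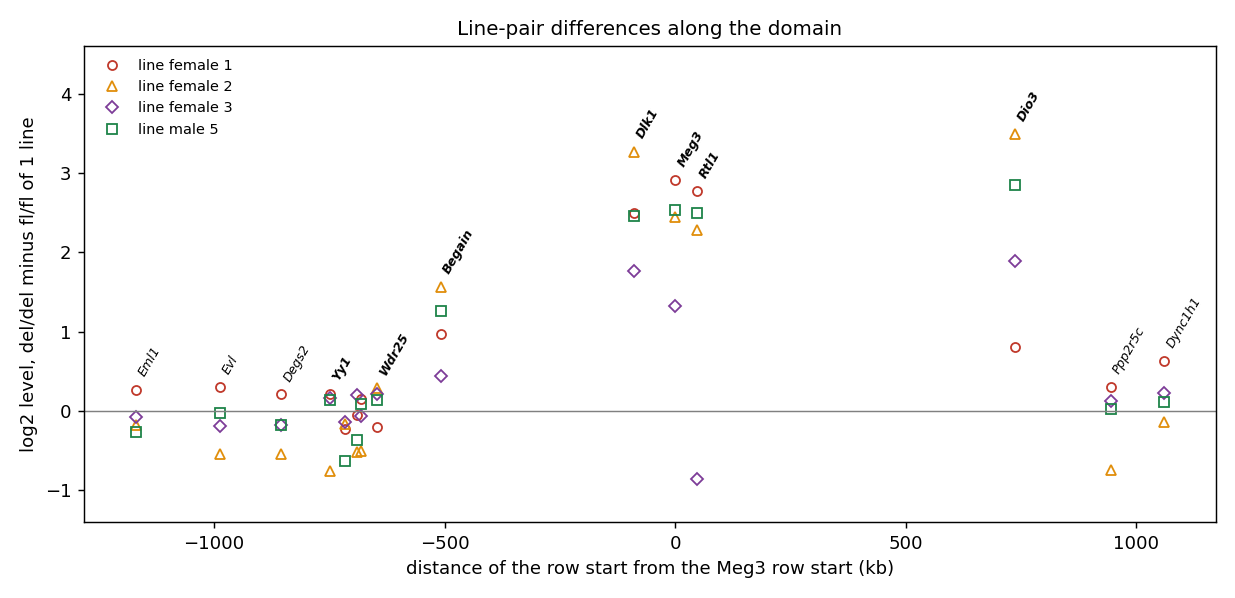
Difference in level between the del/del and fl/fl parts of each of 4 lines (y axis, log2) for the rows along the domain, placed by the distance of the row start from that of Meg3 (x axis, kb); domain genes are in bold, and the crowded rows of Slc25a29, Slc25a47 and Wars are drawn without a name. Values reach 3.27 for Dlk1 and 2.91 for Meg3, while those of Ppp2r5c, 944.7 kb away, run from -0.74 to 0.30; Rtl1 and Dio3 rest on few reads, with 0.9 of a read entered where there was none.

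The named rows between Yy1 and Wdr25, and the next rows beyond Dio3, showed no called difference. Wars, which encodes the enzyme that charges tRNA with tryptophan and ends just before Wdr25, had -0.10 (SE 0.139, limma adjusted p = 0.997). The mitochondrial carrier gene Slc25a29 had -0.28 (SE 0.164, limma adjusted p = 0.765), and Slc25a47 had -0.23 (SE 0.189, limma adjusted p = 0.962). Beyond Dio3, Ppp2r5c, a regulatory subunit of protein phosphatase 2A, had -0.10 (SE 0.175), and Dync1h1, the heavy chain of cytoplasmic dynein, 0.16 (SE 0.167), both with a limma adjusted p of 0.997. The line-pair differences of these 5 rows ran from -0.74 to 0.63. A p that misses the threshold does not show that a gene was the same in both groups.

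Per length of row, the order of the genes differed in part between the groups. In RPM per Mb of row span, introns included, del/del libraries had 2530 ± 185 for Yy1, 393 ± 76.8 for Dlk1, 130 ± 25.1 for Meg3, 69.6 ± 9.63 for Begain, 65.4 ± 94.5 for Dio3, 24.3 ± 1.65 for Wdr25 and 11.3 ± 5.93 for Rtl1 (SD, n = 4). In fl/fl libraries the levels were 2670 ± 776 for Yy1, 89.3 ± 45.1 for Dlk1, 37.2 ± 15.4 for Begain, 29.2 ± 9.01 for Meg3, 23.7 ± 3.70 for Wdr25, 3.98 ± 3.84 for Rtl1 and 2.65 ± 3.87 for Dio3 (SD, n = 5). Yy1 stood above all others in both groups, and Meg3 came after Dlk1 in del/del but after both Dlk1 and Begain in fl/fl cultures. In del/del cultures the ranges of Dio3 overlapped those of Meg3, Begain, Wdr25 and Rtl1, and all other neighbours were apart. In fl/fl cultures Dlk1 and Begain, Begain and Meg3, Meg3 and Wdr25, and Rtl1 and Dio3 overlapped.

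Neither the sex of the line nor its interaction with the deletion gave a call among these genes. The effect on Dlk1 was 2.51 (SE 0.398) in females and 1.90 (SE 0.597) in males, and on Meg3 2.22 (SE 0.359) in females and 2.24 (SE 0.538) in males. The female minus the male effect was 0.61 for Dlk1 (95% interval -1.01 to 2.23), -0.01 for Meg3 (-1.48 to 1.45) and 0.06 for Begain (-1.50 to 1.62), each with a limma adjusted p of 1.0. The value for Dlk1 was 0.05 with male fl/fl 7 left out, and 1.17 with male fl/fl 5 left out. In the blocked fit it is the same 0.05 by construction, since male fl/fl 7 has no partner in its line and adds nothing there. With 1 library left out the value for Meg3 ran from -0.33 to 0.28 and that for Begain from -0.27 to 0.46, so neither had a fixed sign. Among all kept genes limma called 0 for this difference (0.0%; 6, or 0.0427%, at an unadjusted p under 0.05, of which 0 were domain genes, and 0 adjusted with voom). With 1 male del/del library, its spread was taken to equal that of the other groups, and the intervals admit effects that differ between the sexes by more than 2-fold for Dlk1, Meg3 and Begain. In fl/fl cultures, Dlk1 in females minus males differed by -0.69 (SE 0.445, limma adjusted p = 0.992) and Meg3 by -0.20 (SE 0.401, limma adjusted p = 0.992). Begain had 0.07, Wdr25 -0.15 and Yy1 0.28, and 0 of the 5 domain genes passed in that contrast (0 also at an unadjusted p under 0.05 and with voom), where 0.0356% of kept genes did (0.0142% higher and 0.0214% lower in females).

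The genes whose levels over the 9 libraries were most like those of Meg3 were Nrxn3, of a presynaptic adhesion protein (r = 0.981), the neuronal translation factor gene Eef1a2 (r = 0.979), the kinase gene Ptk2b (r = 0.977), the neurofilament gene Nefm (r = 0.976) and the lipase gene Mgll (r = 0.971). Dlk1 had an r of 0.961 with Meg3 and ranked 10 among the kept genes. Most like Dlk1 were Lpin3 (r = 0.975), AI464131 (r = 0.971), Fam110b (r = 0.968), the active zone gene Rimbp2 (r = 0.967) and the transcription factor gene Onecut2 (r = 0.966). All 10 had a higher mean in del/del than in fl/fl libraries, for example 1.73 in del/del and 0.19 in fl/fl libraries for Nrxn3, 1.08 in del/del and -1.61 in fl/fl libraries for Eef1a2, and 0.57 in del/del and -1.53 in fl/fl libraries for Rimbp2, so r follows mainly the split between the groups. Ptk2b (-0.36) and Onecut2 (-1.56), like Eef1a2 and Rimbp2, had fl/fl means below 0 log2 RPM. The filter on low values admits such genes through the del/del libraries, so the ranked genes were not picked independently of that split. Begain ranked 403 by likeness to Meg3 (r = 0.820), Wdr25 6383 (0.078) and Yy1 8888 (-0.080).

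Markers of neurons, cells in which Meg3 is abundant in the brain, had estimates in both directions. Of 12 markers 11 were found, none of them at 0 reads in every library, and their summed level was 126 to 139 RPM in del/del and 88.2 to 109 RPM in fl/fl libraries. Limma called 1.45% of all kept genes higher and 0.0997% lower. Of the 9 markers that were kept, 2 rose and 0 fell. These were the neurofilament genes Nefm, with 5.32 to 5.77 log2 RPM in del/del and 3.73 to 4.29 in fl/fl libraries (difference 1.49, SE 0.147, limma adjusted p = 0.00428), and Nefl (1.25, SE 0.159, limma adjusted p = 0.00751). Both missed the threshold without male del/del 5 (limma adjusted p = 0.0717 and 0.0930). The others did not pass, among them Gad1 at 0.80 (limma adjusted p = 0.214, and 0.0348 with the line as a block). Estimates were below 0 for Syp (-0.30), Tubb3 (-0.36), Rbfox3 (-0.50), Syt1 (-0.33) and Dcx (-0.18), that of Snap25 was 0.01, and the list median was -0.18, against -0.00 over all kept genes. Their part in the Meg3 and Dlk1 levels was not tested.

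Among 8 kept astrocyte markers 3 rose and 0 fell, where 1.45% of all kept genes were called higher and 0.0997% lower. The list median was 0.48, and the summed level was 290 to 384 RPM in del/del and 228 to 431 RPM in fl/fl libraries. Gfap, the intermediate filament of astrocytes, had 2.07 (SE 0.346, limma adjusted p = 0.0194), the water channel gene Aqp4 1.66 (SE 0.291, limma adjusted p = 0.0231) and the glutamate transporter gene Slc1a2 0.66 (SE 0.123, limma adjusted p = 0.0318). Each lost its call when female del/del 1 or 2, male del/del 5 or female fl/fl 3 was left out. So did Aqp4 and Slc1a2 when female del/del 3 was, and Slc1a2 when male fl/fl 5 was (adjusted p 0.0538 to 0.257). Fibroblast and mesenchymal markers summed to 134 to 165 RPM in del/del and 82.0 to 122 RPM in fl/fl libraries, with Lum at 0 reads throughout, and endothelial markers to 3.81 to 7.95 RPM in del/del and 2.61 to 4.47 RPM in fl/fl libraries. None of the 2 kept markers of each list passed by limma, and with the line as a block Flt1 did (2.00, SE 0.293, limma adjusted p = 0.00995). Flt1 passed the filter on low values only with the del/del libraries, since its fl/fl median was -0.78 log2 RPM. Markers of the oligodendrocyte lineage summed to 71.0 to 88.7 RPM in del/del and 59.8 to 114 RPM in fl/fl libraries. Those of microglia and leukocytes, 3 of 7 kept, summed to 106 to 118 RPM in del/del and 93.7 to 126 RPM in fl/fl libraries. Most of that sum was Cx3cr1, with 6.56 to 6.73 log2 RPM in del/del and 6.38 to 6.85 in fl/fl libraries. Csf1r had 2.37 to 2.57 in del/del and 2.36 to 2.68 in fl/fl libraries, and P2ry12 2.08 to 2.46 in del/del and 2.15 to 2.88 in fl/fl libraries. The part of these lists in the domain genes' levels was not tested.

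Of 39 imprinted genes from elsewhere in the genome that were kept, 2 rose and 0 fell, with a median difference of 0.04 against -0.00 over all kept genes, 1.55% of which were called in either direction. Sfmbt2, a Polycomb-related gene, had 0.15 to 0.24 log2 RPM in del/del and -2.78 to -1.69 in fl/fl libraries (difference 2.50, SE 0.438, limma adjusted p = 0.0232). Zdbf2 had 0.30 to 1.22 in del/del and -1.30 to -0.73 in fl/fl libraries (1.65, SE 0.310, limma adjusted p = 0.0318). Every fl/fl value of both genes was below 0 log2 RPM, so they passed the filter on low values only with the del/del libraries. With each library left out in turn, Sfmbt2 was still called in 3 of 9 fits (female fl/fl 1 or 2 or male fl/fl 7 absent) and Zdbf2 in 1 (male fl/fl 7 absent) (adjusted p up to 0.286 and 0.302). Kcnq1 had 0.40 (limma adjusted p = 0.0662), and with the line as a block Grb10, a brake on growth factor signalling, fell (-0.66, SE 0.145, limma adjusted p = 0.0443).

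Of 24 kept genes that write, keep or erase methylation and chromatin marks at imprinted regions, 1 fell, Smchd1 itself, and 0 rose. Of all kept genes 0.0997% were called lower and 1.45% higher. The median difference of the 24 was -0.09, with 6 of 24 estimates above 0, against 6869 of 14044 over all kept genes. Tet2, an enzyme that oxidises methylcytosine, had 4.73 to 4.95 log2 RPM in del/del and 4.39 to 4.61 in fl/fl libraries, without overlap (difference 0.40, SE 0.0906, limma adjusted p = 0.0705), and Tet1 had -0.24 (limma adjusted p = 0.591).

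In the Notch pathway, which Dlk1 protein can restrain, 0 of 29 kept genes passed by limma, with a median difference of 0.07. Of all kept genes 1.55% were called in either direction, so a count of 0 among 29 lies near that share. Above 0 were 21 of 29 estimates, and 18 with median centring. Over all 14044 kept genes 6869 were above 0, and 6362 with median centring. With the line as a block Hey2, a transcriptional target of Notch, and Maml3, a coactivator, passed (1.09, SE 0.207, limma adjusted p = 0.0258, and 0.82, SE 0.170, limma adjusted p = 0.0355). That fit called 3.77% of all kept genes higher. Without the block Hey2 had 0.48 to 0.92 log2 RPM in del/del and -0.85 to 0.02 in fl/fl libraries (difference 1.06, SE 0.233, limma adjusted p = 0.0632). Its fl/fl median was -0.28, so Hey2 passed the filter on low values only with the del/del libraries. Maml3 had 0.82 (SE 0.209, limma adjusted p = 0.107), and Psen2 0.46 (limma adjusted p = 0.411).

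Among genes that handle thyroid hormone beside Dio3, 1 of 11 kept rose, where 1.45% of all kept genes were called higher. Dio2, whose product activates the hormone, had 3.25 to 3.92 log2 RPM in del/del and 2.26 to 3.13 in fl/fl libraries (difference 0.95, SE 0.191, limma adjusted p = 0.0436). It was still called with female del/del 3 or female fl/fl 1 or 2 left out, and lost its call when any of the other 6 libraries was (adjusted p up to 0.292). The receptor gene Thrb had 0.41 (limma adjusted p = 0.561).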

How the data were processed

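Per the labels, total RNA of 9 neural stem cell cultures was made into Illumina libraries. Build mm10 and the tools TopHat2 2.0.12, bcl2fastq and edgeR 3.8.2 come from the submitters' processing notes; for read counter, strand and annotation release, the sources used here give nothing. Where the series' design text differs (every line female, del/fl as control genotype), groups follow the sample labels. The authors deposited 1 log2 RPM value per gene and library. Scaled back, at least 99.9961% of values per library came within 0.05 of a whole read count, with 0 reads entered as 0.9. In all 2207 pairs of nested rows the inner row had no more reads than the outer in any library, as counting over whole spans gives; none of the 7 domain rows overlaps another row (7479 rows do).

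Genes with at least 0 log2 RPM in at least 3 libraries (14044) were fitted with limma 3.58.1 in R 4.3.3 (eBayes with trend, two-sided, Benjamini-Hochberg adjusted, threshold 0.05), with sex as a covariate, or as 4 group means for the sex contrasts. The script was tested on simulated data. Gene types and strands are from GENCODE vM21, and sequences from RefSeq tables (GRCm38.p6), which held 12 promoter windows for 7 of the 9 symbols. Named besides the domain genes are the rows between them, the next rows beyond Dio3, list genes that passed or had the 3 smallest p, and the 5 genes with the highest Pearson r with Meg3 and with Dlk1, without predicted genes; list genes called only with the block, the neuron markers with estimates at or below 0.01, and the rows beyond Dio3 were named after their values were seen. A gene that this rule would name is not reported here. Domain genes and lists were chosen with earlier results of these data known. The growth protocol says that each line was divided, so line numbers pair libraries; deviations from the group mean of female libraries of 1 line correlated across genes with r of 0.868, 0.582 and 0.758, and those of different lines with -0.841 to 0.728 (del/del 2 with fl/fl 3 at 0.728, above the 0.582 of line 2 itself), so the pairing rests on the protocol. In the sample descriptions female del/del 1, female fl/fl 1 and male fl/fl 7 lack an RNA- prefix that the other 6 libraries carry. Both libraries of female line 1 so differ from those of female lines 2 and 3 in this prefix. The r of 0.868 within line 1 cannot be told apart from that split. Alternatives were other scalings, no filter, log2 of RPM plus 1, voom on recovered reads, the line as a block, and fewer libraries. With only the 6 prefixed libraries, del/del minus fl/fl was 2.50 for Dlk1 and 2.10 for Meg3.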

Additional observations from a re-analysis of the deposited data

Results flagged for a closer look

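Each domain gene was examined within the 4 del/del and within the 5 fl/fl libraries for a value far from the others, on the log2 and on the linear scale, 28 sets of values in all, and 3 stood out; chance alone gives about 1 in 20. Yy1 in female fl/fl 2, at 6.58 log2 RPM or 95.6 RPM, stood above the other 4 fl/fl libraries, and the gap to the next was 0.794 of the group's range on the log2 scale and 0.842 on the linear scale. That library is the shallowest and has the highest median over all kept genes. Dio3 in female del/del 2, at 0.418 RPM from 44 reads, stood above the other 3 del/del libraries, with a gap of 0.864 of the range on the linear scale.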

How the results depend on the processing

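Over 90 refits of the 5 kept domain genes in del/del minus fl/fl, 88 moved by less than the residual SD. The other 2 were with log2 of RPM plus 1, where Dlk1 had 1.46 and Meg3 1.42. The refits are not all separate checks. The line as a block and leaving out the unpaired male fl/fl library both gave 2.50 for Dlk1 and 2.30 for Meg3. Females only and leaving out male del/del 5 both gave 2.51 for Dlk1 and 2.22 for Meg3. The residual SD is also a lenient limit, so the count of 88 says little about how firm the estimates are. Leaving out 1 library gave 2.17 to 2.51 for Dlk1, 2.02 to 2.40 for Meg3 and 0.76 to 1.22 for Begain. The count of domain genes called was 2, with 0 in females only and a range of 0 (without male del/del 5) to 2 when 1 library was left out. Since these genes were chosen with this contrast in view, nothing is read from that count. Over all kept genes 217 (1.55%) were called, 104 with quantile normalization and 561 (3.99%) with the line as a replicate block (3 domain genes). With the block and median centring 250 were called (2 domain genes, Begain being lost), and 3 in females only. Without 1 library 2 to 252 were called (2 without male del/del 5, 66, 54 and 135 without female del/del 1, 2 and 3, 117 without male fl/fl 5, and 94 if female fl/fl 3 is dropped). For female minus male fl/fl 5 genes were called, and 2 to 6 without 1 library. The block also called 1 endothelial marker and 2 Notch genes, where 0 were called without it; it changed no call of a domain gene other than Begain. The 70 refits of these genes in each sex contrast changed no call. The sex difference could not be had without male del/del 5. Depth limits Rtl1 and Dio3 most, and female fl/fl 2 had 13 reads of Dlk1.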
